A study of Mus musculus with 6 samples.

Results

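The genes described here make the lipoyl cofactor and the enzyme complexes that carry it. They were chosen by symbol, as 10 of the 25353 genes of the deposited table: Lias, Lipt1, Lipt2, Pdha1, Pdhb, Pdhx, Dlat, Dld, Dlst and Ogdh. The set was drawn up with the difference between the knockout and wild-type libraries already known, in which Lias stood out. The members' differences between the groups are therefore given as a description, with no test.

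The samples are oocytes of the germinal vesicle (GV) stage from mice, egg cells held in prophase of meiosis with the nucleus still intact, and the labels' protocol also describes oocytes taken from secondary follicles. There were 3 wild-type (WT) and 3 knockout (KO) libraries of strain C57BL/6J, each made from 5 pooled oocytes of mice described as 8 weeks old, although the age field reads P1. The KO genotype is Mfn2-/- in the series' design text and Mfn1-/- in the sample fields. Both genes encode mitofusins, GTPases that fuse mitochondria, and the labels name no Cre driver and no treatment. Mfn2 had normalized read counts of 25.5, 38.1 and 32.3 in WT and 5.25, 5.28 and 4.50 in KO, and it was lower in KO (log2 fold change -2.44, SE 0.38, limma adjusted p = 0.00487). For Mfn1 the mean was 340 ± 36.3 over the WT libraries (SD, n = 3) and 386 ± 10.3 over the KO libraries (SD, n = 3). KO below means the libraries labelled KO. Nothing ties each pool to its own mouse, and p-values measure only the spread between these samples, which may be technical.

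The libraries held 6450191 to 7992598 reads in genes, and a count of 0 allows a level of up to 0.375 to 0.465 CPM (reads scaled to the library total, counting error only). All 11 oocyte markers were present, with a summed level of 22311 to 26657 CPM in WT and 17249 to 24072 in KO. The lowest sums were those of WT replicate 2 and KO replicate 1. Of 9 theca and stroma markers 7 were measured, and their sum was 97.1, 6.82 and 16.1 CPM in WT replicates 1 to 3 and 1.71 to 2.41 in KO. Cyp11a1 made up 84.5 of the 97.1 in WT replicate 1. The sums of 10 granulosa markers overlapped between WT (84.5 to 110.2) and KO (72.0 to 92.4), as did those of 4 endothelial markers (27.1 to 33.3 and 24.3 to 37.4). Pecam1, at 19.9 to 31.1 CPM, made up most of the endothelial sums. Within these lists Cyp19a1 was apart and lower in KO (50.7 to 60.3 CPM in WT, 43.7 to 48.0 in KO). Kdr was also apart and lower (1.18 to 1.55 and 0.30 to 0.46), while Nr5a2 was apart and higher (18.4 to 20.5 and 20.7 to 24.9). The 5 immune markers measured summed to 3.28 to 11.01 in WT, highest in WT replicate 1, and 1.81 to 2.58 in KO. Lyz2, Cd74 and Adgre1 had no reads in KO or in WT replicate 2, and Adgre1 had none in WT replicate 1 either. Csf1r overlapped between WT (0.26 to 1.55 CPM) and KO (0 to 1.06), while Cd68 did not (2.64 to 3.02 and 1.21 to 2.10). The part of the theca, stroma, granulosa, endothelial and immune markers in the results below was not tested.

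Lipoate is a sulfur-containing fatty acid that works only once it is bound to a lysine of a mitochondrial protein. LIPT2 moves an octanoyl chain from the mitochondrial acyl carrier protein to the glycine cleavage H protein, LIAS inserts the sulfur atoms, and LIPT1 passes the finished lipoyl group to the E2 subunits of the large dehydrogenase complexes. Pyruvate dehydrogenase turns pyruvate into acetyl-CoA and 2-oxoglutarate dehydrogenase runs a step of the tricarboxylic acid cycle, and mouse oocytes depend on pyruvate for energy.

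The codons of the acceptor lysines are shown because the finished lipoyl group is attached there. They were located by translating GENCODE M21 transcripts and finding the conserved residues around the lysine. The coding strand is printed 5′ to 3′, with the lysine codon in capitals.

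Dlat, first lipoyl domain: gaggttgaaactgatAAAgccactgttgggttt

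Dlat, second lipoyl domain: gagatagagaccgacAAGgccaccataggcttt

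Pdhx: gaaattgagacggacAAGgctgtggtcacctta

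Dlst: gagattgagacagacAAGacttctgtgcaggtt

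These are codons 131 and 258 of Dlat, codon 97 of Pdhx and codon 111 of Dlst, counted from the start codon. On GRCm38 the windows span chr9:50658260-50658690 and chr9:50650934-50653649 for Dlat (exons 2 to 3 and 5 to 6, minus strand), chr2:103046757-103046789 for Pdhx (exon 3, minus strand) and chr12:85118820-85119247 for Dlst (exons 6 to 7, plus strand). The 2 Dlat windows were identical at 23 of 33 bases. The Pdhx window matched them at 18 and 21 bases, and the Dlst window at 21 bases in each case. Lias, whose RNA differed most between the groups, carries its iron-sulfur clusters on 2 cysteine triplets, and the cysteine codons are in capitals here.

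Lias, first cysteine triplet: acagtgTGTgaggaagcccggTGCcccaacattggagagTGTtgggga

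Lias, radical SAM triplet: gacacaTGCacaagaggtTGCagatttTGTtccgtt

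The first triplet lies at codons 105 to 116 (chr5:65394032-65395409, exons 3 to 4, plus strand) and the second at codons 136 to 143 (chr5:65397612-65397647, exon 5). The reads were counted per gene, so they do not show whether these exons were in the RNA.

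The members lie on 9 chromosomes of GRCm38. Those of the cofactor route are Lias on chromosome 5, Lipt1 on chromosome 1 (37871738 to 37876228, plus strand) and Lipt2 on chromosome 7 (100159277 to 100161365, plus strand). Of the pyruvate dehydrogenase subunits, Pdha1 lies on chromosome X (160122209 to 160138413), Pdhb on 14 (8165996 to 8173025), Dlat on 9 (50634633 to 50659780) and Pdhx on 2 (103021075 to 103073513), all on the minus strand. Ogdh lies on chromosome 11 (6291633 to 6356642, plus strand), and chromosome 12 holds both Dlst (85110833 to 85134845, plus strand) and Dld (31331277 to 31351453, minus strand).

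Levels were compared between genes as RPKM, reads scaled to the library total and to the length of all annotated exons in kilobases, over the WT libraries. Lipt1 was highest at 132 ± 3.98 RPKM (SD, n = 3), above 97.2% of the detected genes. Pdhx, which docks the E3 subunit in the pyruvate dehydrogenase core, stood at 112 ± 4.67. Dld, the E3 dehydrogenase that all lipoyl complexes share, stood at 89.9 ± 10.02. The other transferase of the cofactor, Lipt2, had 23.8 ± 2.66 RPKM. Next came the E1 beta subunit Pdhb at 16.1 ± 1.83, the E2 acetyltransferase Dlat at 11.7 ± 0.0711 and the E1 alpha subunit Pdha1 at 9.82 ± 1.13. The 2-oxoglutarate dehydrogenase subunits Dlst (E2) and Ogdh (E1) followed at 4.51 ± 0.479 and 3.45 ± 0.292. Lias was lowest at 0.279 ± 0.153 RPKM, above 34.4% of detected genes. No pair of neighbours in this order overlapped in its range over the 3 WT libraries, and the order of the means was the same in KO. The KO means ran from 140 ± 19.3 for Lipt1, 113 ± 6.54 for Pdhx and 90.8 ± 16.9 for Dld to 4.71 ± 0.808 for Ogdh and 1.25 ± 0.739 for Lias (SD, n = 3). With the length of 1 coding transcript in place of all annotated exons, Lipt1, Pdhx and Dld stayed the first 3 and Ogdh and Lias last, while the 5 genes between changed places. That length was chosen after the data were seen, and it gave WT means of 41.0 RPKM for Pdhb, 15.6 for Dlst and 0.764 for Lias.

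**Figure D1:**
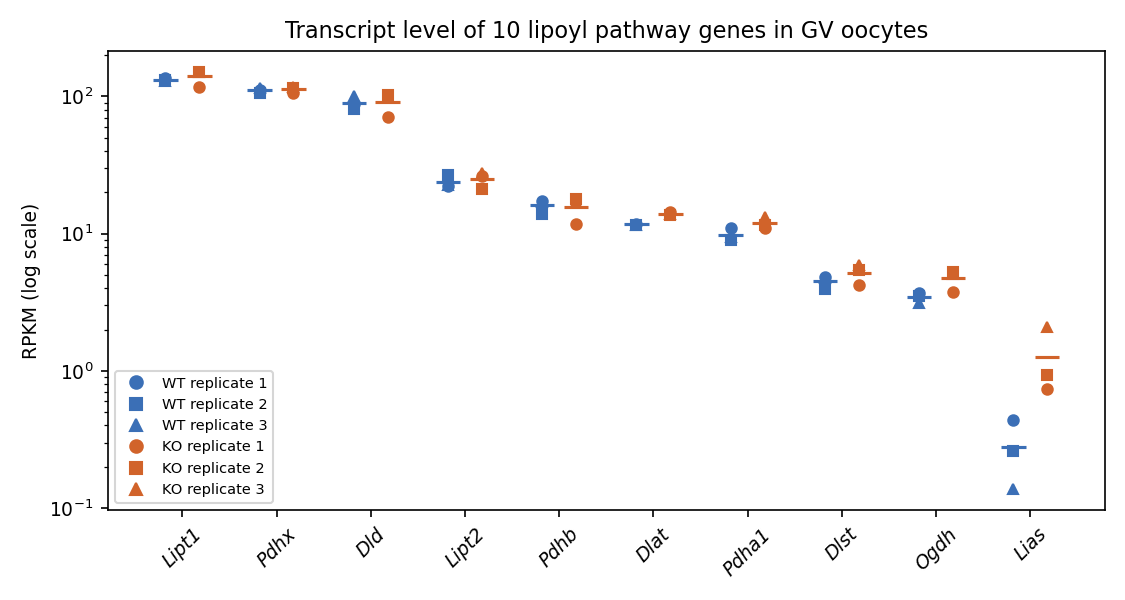
Level of each of the 10 genes in RPKM (log scale) by library, with WT in blue, KO in orange, a marker shape for each replicate and a bar at each group's mean. Lipt1, Pdhx and Dld sit near 100 RPKM in both groups, and Lias is the lowest in both, at 0.137 to 0.441 RPKM in WT and 0.731 to 2.10 in KO.

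The docking subunit Pdhx had 9.57, 9.17 and 10.01 times the RPKM of the acetyltransferase Dlat in the WT libraries. The same ratio was 7.32, 8.40 and 8.56 in KO. The ratio of Dlst to Ogdh, which belong to the same complex, was 1.30, 1.14 and 1.50 in WT and 1.11, 1.04 and 1.15 in KO. The ratio of Dlst to Ogdh also depends on the length used. With that of 1 coding transcript it was 3.37, 2.94 and 3.88 in WT and 2.87, 2.68 and 2.98 in KO. Lipt1 exceeded Lias by 310, 509 and 940 times in WT and by 162, 164 and 72.4 times in KO. With the length of 1 coding transcript Lipt1 exceeded Lias by 156, 257 and 474 times in WT and by 81.5, 82.5 and 36.5 times in KO.

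Among the cofactor enzymes, Lias (ENSMUSG00000029199, chromosome 5, 65391497 to 65410693, plus strand) stood at 14.4, 8.37 and 4.62 normalized read counts in WT. In the KO libraries it had 23.1, 29.6 and 65.6. The lowest KO library lay above the highest WT library, and KO replicate 3 stood well above the other KO libraries. The values rest on 13, 9 and 5 reads in WT and 22, 28 and 73 reads in KO. The log2 fold change of Lias, on the log2(value + 1) scale used throughout, was 1.97 (SE 0.45). Leaving out KO replicate 3 gave 1.54, leaving out WT replicate 3 gave 1.61, and leaving out WT replicate 1 gave 2.34, the last being the library with the most theca and stroma markers. In pooled oocytes, fewer cells that hold a transcript and less of it per cell cannot be told apart.

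Lipt1, the lipoyltransferase, had 2003, 1912 and 1947 normalized read counts in WT and 1676, 2173 and 2132 in KO. Its KO libraries lay on both sides of the WT range, and its log2 fold change was 0.02 (SE 0.11). Lipt1 shares 262 exonic bases with Mitd1 on the other strand, whose reads the library kit cannot tell apart, and the mean of Mitd1 was 361 ± 46.6 over WT and 445 ± 66.4 over KO (SD, n = 3 for both). Lipt2, the octanoyltransferase, had 263, 317 and 276 in WT and 304, 245 and 313 in KO. The groups overlapped over nearly their whole range, and the log2 fold change was 0.01 (SE 0.14). Of the 3 cofactor enzymes only Lias had groups that did not overlap, where the groups were apart for 23.2% of all tested genes. Whether the difference of Lias exceeded those of Lipt1 and Lipt2 was not tested.

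In the pyruvate dehydrogenase complex, Dlat had 410, 404 and 418 normalized read counts in WT. In KO it had 488, 470 and 462. The groups did not overlap and each was tight, while the difference was small, at a log2 fold change of 0.20 (SE 0.12). Pdha1, the X-linked E1 alpha subunit, had 296, 236 and 260 in WT and 285, 301 and 336 in KO, and its log2 fold change was 0.22 (SE 0.14). KO replicate 1 of Pdha1 fell inside the WT range. Of its annotated exons, 603 bases also belong to Map3k15 on the other strand, a kinase gene with far fewer reads (21.5 ± 8.98 for WT, 28.2 ± 1.64 for KO).

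Pdhb, the E1 beta subunit, had 475, 382 and 487 normalized read counts in WT and 314, 486 and 451 in KO. Only KO replicate 1 lay below WT, and the log2 fold change was -0.12 (SE 0.16), or 0.07 without that library. Of the 75-base windows of Pdhb, 32.8% also match the processed pseudogene Gm6123, so its counts are uncertain. Gm6123 had 96.5, 70.7 and 112 in WT and 69.3, 106 and 101 in KO, with the lowest KO library again KO replicate 1. Pdhx had 3159, 2977 and 3368 in WT and 2874, 3176 and 3182 in KO (log2 fold change -0.04, SE 0.10). Its ranges overlapped, and the value of Pdhx was 0.02 with scaling to the library total and 0.01 without KO replicate 1.

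In the 2-oxoglutarate dehydrogenase complex, Ogdh had 145, 135 and 127 normalized read counts in WT. In KO it had 143, 201 and 191. KO replicate 1 lay inside the WT range and the other KO libraries above it. The log2 fold change of Ogdh was 0.38 (SE 0.17) and 0.53 without KO replicate 1. Dlst had 332, 269 and 333 in WT and 278, 365 and 385 in KO, with a log2 fold change of 0.13 (SE 0.15). Here too KO replicate 1 lay within WT while the other KO libraries were above it. Dld, shared by both complexes, had 2317, 2116 and 2740 in WT and 1819, 2630 and 2498 in KO. Only KO replicate 1 was outside the WT range, and the log2 fold change of -0.06 (SE 0.14) was 0.11 without it and 0.00 with scaling to the total.

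**Figure D2:**
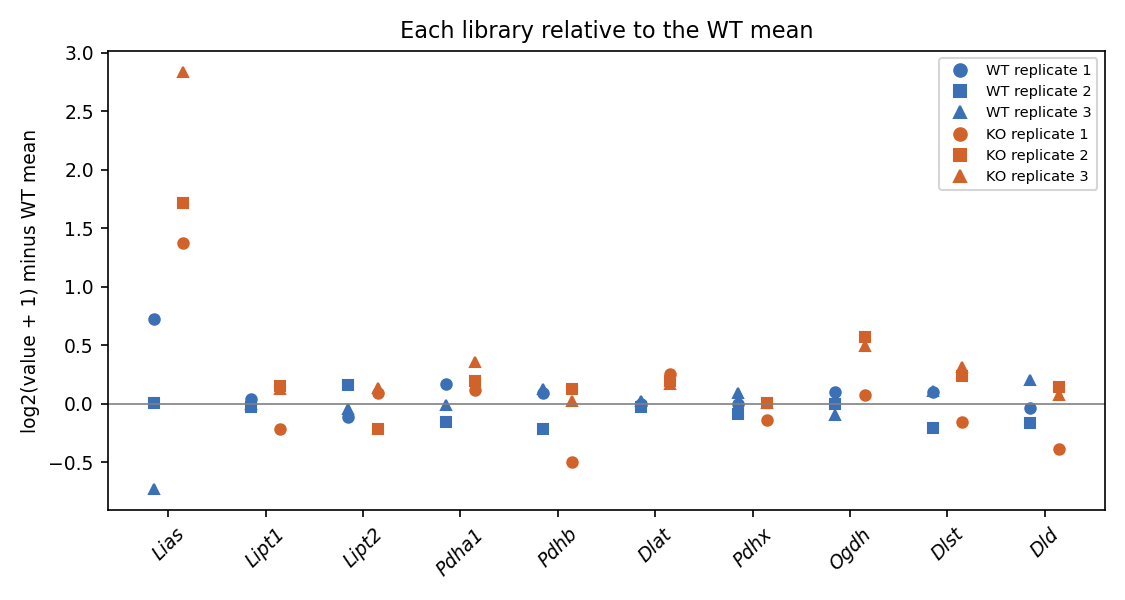
log2(value + 1) of each gene and library minus the mean of the 3 WT libraries, with WT in blue, KO in orange and a marker shape for each replicate. The KO libraries of Lias lie above every WT library, those of Dlat lie close together above WT, and KO replicate 1 is the lowest KO library for 8 of the 10 genes.

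KO replicate 1 was the lowest KO library for 8 of the 10 genes, all but Dlat and Lipt2. Over the tested genes without a tie for the lowest KO library it was the lowest for 37.3%. In WT, replicate 2 was the lowest library for 7 of the 10, and for 31.4% of the tested genes without a tie. These libraries also had the lowest summed oocyte markers of their groups, at 17249 CPM for KO replicate 1 and 22311 for WT replicate 2. The part of these libraries in the members' differences was not tested beyond leaving each out.

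Across the 10 members the median log2 fold change was 0.08, against -0.01 over the 18762 genes tested. Its lowest and highest values with 1 library left out were 0.00 and 0.16. Of the members, 7 had a fold change above 0 and 3 below, among them Pdhx and Dld, which were above 0 with scaling to the total. The groups did not overlap for 2 members, Lias and Dlat, both higher in KO, where 11.5% of all tested genes were higher without overlap and 23.2% were apart in either direction. The fit across all genes called 1 of the 10, Lias, higher and none lower, where it called 3.28% of all genes (1.87% higher and 1.41% lower). The called count was 0 in each fit without WT replicate 2, WT replicate 3, KO replicate 2 or KO replicate 3. The edgeR and DESeq2 fits also called Lias alone, where they called 6.03% and 6.84% of the genes they tested. Since this contrast was known when the set was drawn up, nothing is read from these counts.

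**Figure D3:**
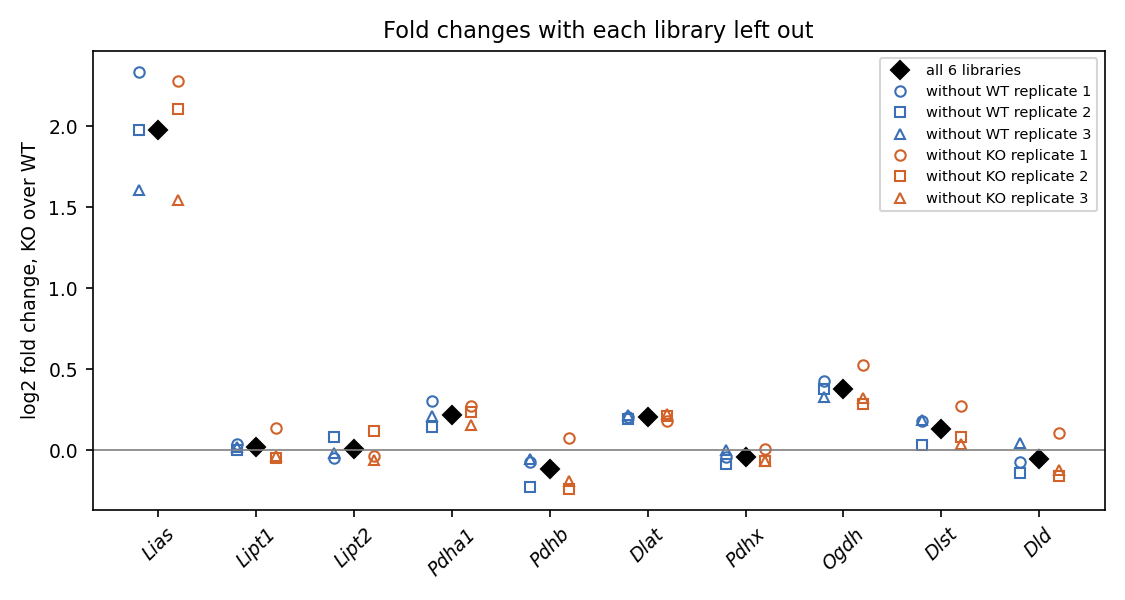
log2 fold change of KO over WT for each gene with all 6 libraries (black diamonds) and with 1 library left out (open symbols, blue for a WT library and orange for a KO library). Lias ranges from 1.54 to 2.34, and without KO replicate 1 the values of Pdhb, Pdhx and Dld move from below to above 0.

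Lias was set beside its neighbours on chromosome 5. Rpl9, a ribosomal protein gene on the other strand, begins 52 bases before Lias in GENCODE. The region around both starts is shown because a single stretch lies upstream of both genes (RefSeq, GRCm38.p6, chr5:65391247-65391546, plus strand). The capitals mark the 65 bases between the RefSeq starts.

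Lias upstream region: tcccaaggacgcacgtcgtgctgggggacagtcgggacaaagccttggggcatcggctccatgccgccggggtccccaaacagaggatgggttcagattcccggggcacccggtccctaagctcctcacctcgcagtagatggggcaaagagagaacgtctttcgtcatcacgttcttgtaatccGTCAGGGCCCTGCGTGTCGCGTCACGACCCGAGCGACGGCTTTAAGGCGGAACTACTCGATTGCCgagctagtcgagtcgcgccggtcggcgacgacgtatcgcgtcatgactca

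Rpl9 had 14.4, 10.2 and 11.1 normalized read counts in WT and 9.45, 14.8 and 17.1 in KO, and the groups overlapped. In limma it was not called (log2 fold change 0.17, SE 0.40, adjusted p = 0.874). The values of Rpl9 rest on only 13, 11 and 12 reads in WT and 9, 14 and 19 reads in KO. Of the windows of the longest annotated Rpl9 transcript, of any type, 12.4% also match other genes, so the counts of Rpl9 are uncertain. Rpl9-ps4, Rpl9-ps6 and Rpl9-ps7 are among these genes. For the members the windows came from a coding transcript, and the share over a coding transcript of Rpl9 was not measured. Whether Rpl9 changed along with Lias cannot be told from these values. On the other side, Ugdh, which makes UDP-glucuronate, lies on the opposite strand and ends 2527 bases past the end of Lias. Rpl9 and Ugdh were named after their values were seen. Ugdh had 11.1, 10.2 and 3.69 in WT and 18.9, 22.2 and 44.1 in KO, in the same order of libraries as Lias. In limma the adjusted p of 0.0541 (log2 fold change 1.68, SE 0.46) missed the threshold of 0.05, while it was 0.0379 in edgeR and 0.0415 in DESeq2, both run on recovered reads. Without WT replicate 3 the limma adjusted p of Ugdh was 0.204. The values of Ugdh rest on only 10, 11 and 4 reads in WT and 18, 21 and 49 reads in KO. The gene model Gm43311 lies between Lias and Ugdh and shares 43 exonic bases with Lias, and 1110003F10Rik lies within Lias and shares no exonic base. Neither was analysed here.

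**Figure D4:**
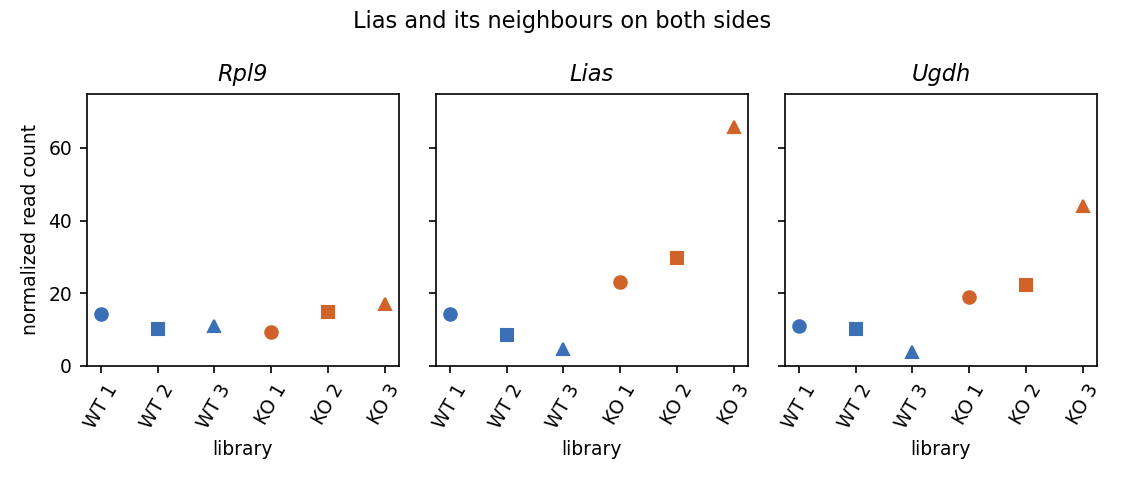
Normalized read counts of Rpl9, Lias and Ugdh in each library, with WT in blue and KO in orange. Rpl9 overlaps between the groups, while Lias and Ugdh are lowest in WT replicate 3 and highest in KO replicate 3.

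By the rule for likeness, the protein-coding genes whose log2 values followed Lias most closely over the 6 libraries were Tfrc, the transferrin receptor (Pearson's r = 0.997), Emc4 (0.996), Gemin2 (0.991), the chaperone Hsph1 (0.990) and Ppm1g (0.989), of 9370 compared. They share these libraries and the difference between the groups with Lias, and no p is given. Tfrc had 39.9, 28.8 and 20.3 normalized read counts in WT and 52.5, 57.1 and 86.3 in KO. Ugdh, below the level set for the rule, had r = 0.981, and 23 of the 9370 compared genes had a higher r.

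The promoters of all 10 members were in RefSeq's table (300 bases around each start). A form of the NRF1 site, GCGC then any base then TGCGC, was found on either strand at Dld only, where 5.19% of all genes had them in a promoter. The ETS letters CCGGAAG were found at Lipt1 and Dlst, against 9.93% of all genes. The letters CCAAT were found at 6 of the 10 members, against 41.1% of all genes, and none of these motifs was found at Lias.

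Other genes of the route were taken from 5 lists, of which 48 genes were tested: 2 were called higher in KO and 1 lower, where 1.87% and 1.41% of all tested genes were called higher and lower. Their log2 fold changes were above 0 for 24 genes and below 0 for 24, with a median of 0.02. With the values scaled to each library's total the counts were 3 and 0.

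Mitochondrial fatty acid synthesis makes the octanoyl chain that LIPT2 uses, and of its 7 genes 1 rose, 1 fell and 5 did not pass (median -0.13), against 1.87% higher and 1.41% lower over all tested genes. Aasdhppt, which attaches the phosphopantetheine arm to the acyl carrier protein, had 112, 130 and 117 normalized read counts in WT and 202, 235 and 240 in KO. It rose by 0.90 (log2, SE 0.15, limma adjusted p = 0.00630) and passed in every fit that left out 1 library. Its groups were apart, as for 23.2% of all tested genes. H2-Ke6, also called Hsd17b8, a subunit of the ketoacyl reductase, had 253, 262 and 233 in WT and 188, 149 and 159 in KO. It fell by 0.59 (SE 0.15, limma adjusted p = 0.0389), a call that ended without any single WT library (0.143 without WT replicate 2), without KO replicate 2 (0.128) or 3 (0.0856), and with scaling to the total (0.0610). Oxsm, the ketoacyl synthase, named after its values were seen, had 8.87, 6.51 and 8.31 in WT and 21.01, 13.7 and 23.4 in KO, and did not pass (limma adjusted p = 0.123).

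Iron-sulfur cluster proteins build the clusters from which LIAS takes sulfur. None of 15 passed the limma test, against 3.28% of all tested genes, with a median of -0.04. In limma 3 of the 15 had an unadjusted p under 0.05, against 3374 of the 18762 genes tested. The edgeR and DESeq2 fits called none of these 15 either, against 6.03% and 6.84% of the genes they tested. Fdx1, a ferredoxin that gives electrons to LIAS and to steroid hydroxylases, had 925, 191 and 246 in WT and 204, 168 and 174 in KO (log2 fold change -0.95, SE 0.37, limma adjusted p = 0.184). Its WT replicate 1 was far above all others, and this is the library in which Cyp11a1 was highest. Without WT replicate 1 the Fdx1 fold change was -0.26. Isca1, an assembly factor for these clusters, had 1498, 1630 and 1658 in WT and 1697, 1943 and 2180 in KO (0.28, SE 0.11, limma adjusted p = 0.197). Its groups did not overlap, as for 23.2% of all tested genes. It passed only in the limma fit without KO replicate 1 (adjusted p = 0.0373).

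Among the other lipoyl complexes and alternative subunits 8 of 9 genes were tested, 1 rose and none fell, with a median of 0.14, against 1.87% higher and 1.41% lower over all tested genes. Bckdhb, the E1 beta subunit of the branched-chain dehydrogenase, had 95.4, 128 and 97.9 in WT and 168, 163 and 178 in KO. It rose by 0.67 (SE 0.17, limma adjusted p = 0.0428), although of the 6 fits without 1 library only that without KO replicate 1 kept the call (0.159 without WT replicate 3). Its partner Bckdha had 51.0, 56.7 and 61.9 in WT and 44.1, 30.6 and 56.7 in KO and did not pass. Gcsh, the H protein on which lipoate is built, named like Bckdha after its values were seen, had 53.2, 19.5 and 23.1 in WT and 66.2, 41.2 and 68.3 in KO. The groups of Gcsh overlapped through WT replicate 1, and it did not pass (log2 fold change 0.96, SE 0.34, limma adjusted p = 0.142).

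No regulator of these complexes passed among 10 tested in limma, nor in edgeR or DESeq2, with a median of 0.05. Over all genes tested, limma called 3.28%, edgeR 6.03% and DESeq2 6.84%. An unadjusted limma p under 0.05 was found for 3 of the 10, against 3374 of the 18762 genes tested. Bckdk, the kinase that inhibits the branched-chain dehydrogenase, had 126, 137 and 101 in WT and 94.5, 83.5 and 65.6 in KO (log2 fold change -0.58, SE 0.20, limma adjusted p = 0.127, edgeR 0.0964). The phosphatase gene Pdp1, whose product activates pyruvate dehydrogenase, had 358, 345 and 321 in WT and 377, 453 and 432 in KO (0.30, SE 0.13, limma adjusted p = 0.224). The groups of both genes were apart, as they were for 23.2% of all tested genes.

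No gene of substrate and cofactor supply passed in limma among 8 tested, none in edgeR and 1 in DESeq2, with a median of 0.15. Over all genes tested, the shares called were 3.28% in limma, 6.03% in edgeR and 6.84% in DESeq2. An unadjusted limma p under 0.05 was found for 1 of the 8, against 3374 of the 18762 genes tested. Slc25a26, which carries the S-adenosylmethionine used by LIAS into mitochondria, had 230, 307 and 306 in WT and 417, 340 and 439 in KO. All KO libraries were above all WT libraries, as they were for 11.5% of all tested genes. The log2 fold change of Slc25a26 was 0.51 (SE 0.15, limma adjusted p = 0.0724, with 0.0434 in DESeq2 and 0.0497 in limma with scaling to the total). Slc5a6, a vitamin carrier that also takes up lipoate, had 5.54 to 10.2 in WT and 9.51 to 18.9 in KO (0.85, SE 0.45, limma adjusted p = 0.338).

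**Figure D5:**
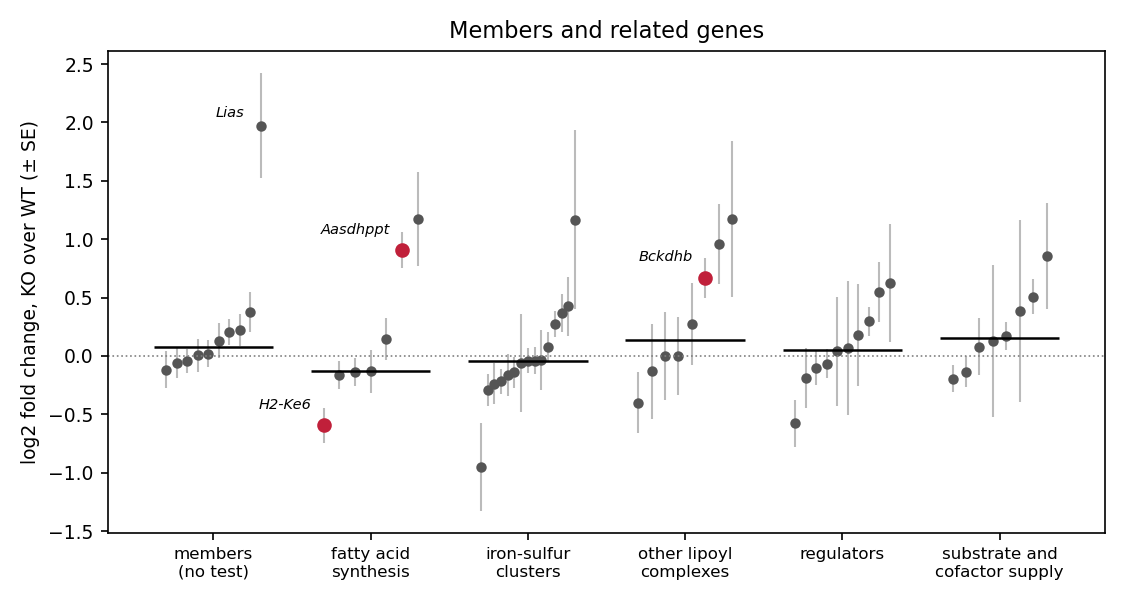
log2 fold change of KO over WT with its SE for the 10 members and the genes of 5 related lists, sorted within each list, with a black bar at the median. Red points passed the limma test at an adjusted p of 0.05, and the members are drawn without a test. Lias is the highest point at 1.97, and Aasdhppt, Bckdhb and H2-Ke6 are the called genes.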

How the data were processed

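The deposited table gives normalized read counts, a signal that the authors made by dividing reads per gene by a size factor of each library. Per the file headers it came from Partek and DESeq2, and per the submitters' processing notes cutadapt, STAR and DESeq2 were used with GRCm38, with versions not given in the sources used here. Smart-Seq2 cDNA and Nextera XT libraries are named per the labels' protocols, kits without strand or molecular identifiers, with read pairs of 75 bases. In a library 1 read is worth 0.899 to 1.11, and division by it gave whole reads for 100% of values within 0.1 reads.

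The 18762 genes that reached 1 in 3 or more libraries were compared as log2(value + 1), 3 KO against 3 WT, with limma-trend (limma 3.58.1, R 4.3.3), no covariate, two-sided, Benjamini-Hochberg adjustment and a threshold of 0.05. Alternatives were edgeR 4.0.16 and DESeq2 1.42.0 on recovered reads (451 higher and 338 lower in edgeR), other pseudocounts, filters and scalings, a replicate block and each library left out. RPKM used GENCODE M21 exons. To find copies, 75-base windows, taken every 25 bases, were aligned with minimap2 2.31-r1302, allowing 1 mismatch. The fits were also run on simulated data. There all genes had the same spread setting, and only genes above a set read level were changed. Nothing is read from that run for genes with few reads, such as Lias.

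Members, lists and rules were chosen with earlier results of these data known. Named genes are the members, Mfn1, Mfn2, genes that overlap a member, the 5 most like Lias, and per list up to 4 genes past the threshold or the 2 of smallest p. Hsd17b8 was matched as H2-Ke6 through RefSeq synonyms. Mpc1l was not analysed here, and Amt, Pdk4 and Slc25a42 were below the filter.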

Additional observations from a re-analysis of the deposited data

How the results depend on the processing

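The 10 members' log2 fold changes moved by less than the spread between replicates under every alternative run, with the exception of Dlat, which was 0.26 with scaling to the total. The direction of Dld and Pdhx changed with that scaling, and those of Lipt1, Lipt2, Pdhb, Pdhx and Dld with single libraries left out. The median of the members ranged from 0.00 to 0.16 with 1 library left out. In the same fits the members called higher ranged from 0 to 1, related genes called higher from 1 to 3 and lower from 0 to 1, and calls over all genes from 71 to 459 higher and 41 to 430 lower, against 351 and 264 with all libraries. Scaling to the total gave 488 higher and 176 lower, and 0 related genes lower. The replicate block gave 246 higher and 175 lower over all genes, 1 related gene higher and 0 lower, with Bckdhb at 0.0694 and H2-Ke6 at 0.0647. Same-numbered libraries showed no shared deviation from their group means (correlations of -0.08, -0.02 and -0.04). Whether they were collected or processed together cannot be told from these values. The cause of these shifts was not tested. Lias rests on 5 to 73 reads per library, which limits its precision.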
